A study of Mus musculus with 240 samples.

Results

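The 9 genes described here, Cd44, Vim, Nes, Anxa1, Anxa2, Lgals1, S100a4, S100a6 and Chil1, are grouped as mesenchymal and invasive glioma genes. They were chosen by symbol from a table of 34623 mouse genes, and all 9 were found in it. The table holds 48 bulk libraries from 37 mice and 2 kinds of small libraries, of tdT-positive oligodendrocyte precursor cells (OPCs) captured by laser from brain sections. The bulk groups were wild-type mice at 12, 90 and 150 days after tamoxifen treatment began (dpi; 5, 5 and 6 mice), Trp53-/- Nf1-/- mice at 12 and 90 dpi (7 and 7), and tumour cells of Trp53-/- Nf1-/- mice at 150 dpi (7). The double-mutant groups are called CKO, as in the sample titles, and the wild-type groups WT. All small libraries were CKO, at 12 and 90 dpi: 112 hold 10 cells captured together (10-cell) and 80 were labelled as pooled (here pool-and-split). The labels used here do not name the Cre driver or the age of the mice, and there was no premalignant CKO group at 150 dpi, so genotype and tumour state cannot be told apart at that time.

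CD44 is a cell-surface receptor for hyaluronan, a glycan of the brain's extracellular matrix, and ezrin, radixin and moesin link it to actin. Vimentin (Vim) and nestin (Nes) are intermediate filament proteins of immature glia and neural progenitors. Annexins A1 and A2 bind membranes when calcium is present, galectin-1 (Lgals1) binds beta-galactosides on glycoproteins, and S100a4 and S100a6 encode small calcium-binding proteins. Chil1 encodes the secreted chitinase-like protein also called YKL-40. In human glioblastoma several of these genes, though not all, are read as signs of the mesenchymal state. That state is set against a proneural state with OPC-like expression. Fibroblasts, macrophages and reactive astrocytes also express many of them.

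The genes lie on 6 chromosomes, and all coordinates are GRCm38. Cd44 spans chr2:102811141-102901665 on the minus strand and Vim chr2:13573927-13582826. Nes lies at chr3:87971078-87980451, S100a4 at chr3:90603771-90606045 and S100a6 at chr3:90612882-90624181, the last pair side by side in the S100 cluster. Anxa1 lies at chr19:20373428-20390944 on the minus strand, Anxa2 at chr9:69453620-69491795, Lgals1 at chr15:78926725-78930465 and Chil1 at chr1:134182176-134190181. All 9 are protein-coding. S100a4 shares 100% identity over part of its transcript with the predicted gene Gm42674, which overlaps it and held 15.88 counts over the bulk libraries against 4229.97 for S100a4. Exons of Anxa2 overlap the antisense gene Gm16144, and the sources used here do not say whether counting used strand.

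Promoters were read because 8 of the genes moved together in tumours. RefSeq (GRCm38.p6) gave a window of 300 bases, 250 before to 50 after the start, for 8 of the 9 genes: not for Lgals1, which rose in tumours, but for Chil1, which was not called. Each of 6 motifs was searched on both strands. The string TATAAA, the core of the TATA box, was in 4 of the 8 windows (Vim, Anxa1, Anxa2 and S100a4), against 13.6% of 32851 promoters of the same length. The GC box, GGGCGG, was in 3 of 8 (Cd44, Nes and Anxa2) against 35.7%. TGANTCA (the AP-1 site) was in 1 (Anxa2) against 7.81%, TTGCNNAA (C/EBP) in 1 (Anxa1) against 10.8%, GGAATG (TEAD) in 1 (Anxa1) against 14.7% and TTCNNNGAA (STAT) in none, against 8.3%. A match is a string of letters, not a measured site. Stretches of 30 bases around the TATA and AP-1 strings, the GC boxes of Nes and 1 of the 3 GC boxes of Anxa2 follow, 5′ to 3′ on the gene's strand, with the motif or its reverse complement in capitals.
Vim, TATA box, chr2:13574263-13574292, plus strand: tctttcctaacagtgtTATAAAagcagcgc
Nes, GC boxes, chr3:87971014-87971043, plus strand: tagggaCCGCCCcttttCCGCCCggccggc
Anxa1, TATA box, chr19:20390690-20390719, minus strand: gcttcagttcatatccTATAAAatcaggag
Anxa2, AP-1 string, chr9:69453576-69453605, plus strand: ttccaagttggaTGAGTCAcccagcagggt
Anxa2, GC box and TATA box, chr9:69453650-69453679, plus strand: gggaggatgGGGCGGgTATAAAagccccac
S100a4, TATA box, chr3:90603723-90603752, plus strand: gcagggcctggcagggTATAAAtaggtcag
In Vim and Anxa1 the TATA string sat at the same place, within a stretch running from 48 to 19 bases before the RefSeq start. Anxa2 held 3 GC boxes, and the 1 nearest the start lay 1 base before the TATA string.

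Bulk libraries held 0.0937 to 23.2 M counts (M, 1000000; median 10.0 M), 10-cell libraries 1.64 to 6.49 M and pool-and-split libraries 1.91 to 5.16 M. Median depth per animal ranged from 3.47 M (WT, 12 dpi) to 24.0 M (tumours), and WT_21167 at 90 dpi held 93694 counts, so that 1 count there is worth more than in any other animal. Levels are given as CPM per animal, counts per 1000000 of the scaled total, the libraries of an animal summed. Nf1, targeted in the CKO mice, had a median of 310, 294 and 290 CPM in WT mice at 12, 90 and 150 dpi, and 181, 177 and 217 CPM in CKO mice and tumours. Its log2 change was -0.67 (edgeR adjusted p = 0.0918), -0.62 (0.145) and -0.47 (0.00354) at the 3 times. Trp53 counts did not separate the genotypes before the tumour stage (log2 -0.06 and 0.07, both adjusted p = 1) and were higher in tumours (0.74, 0.00971). Where the deleted exons lie is not stated in the sources used here, so gene-level counts check these labels only in part.

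**Figure D1:**
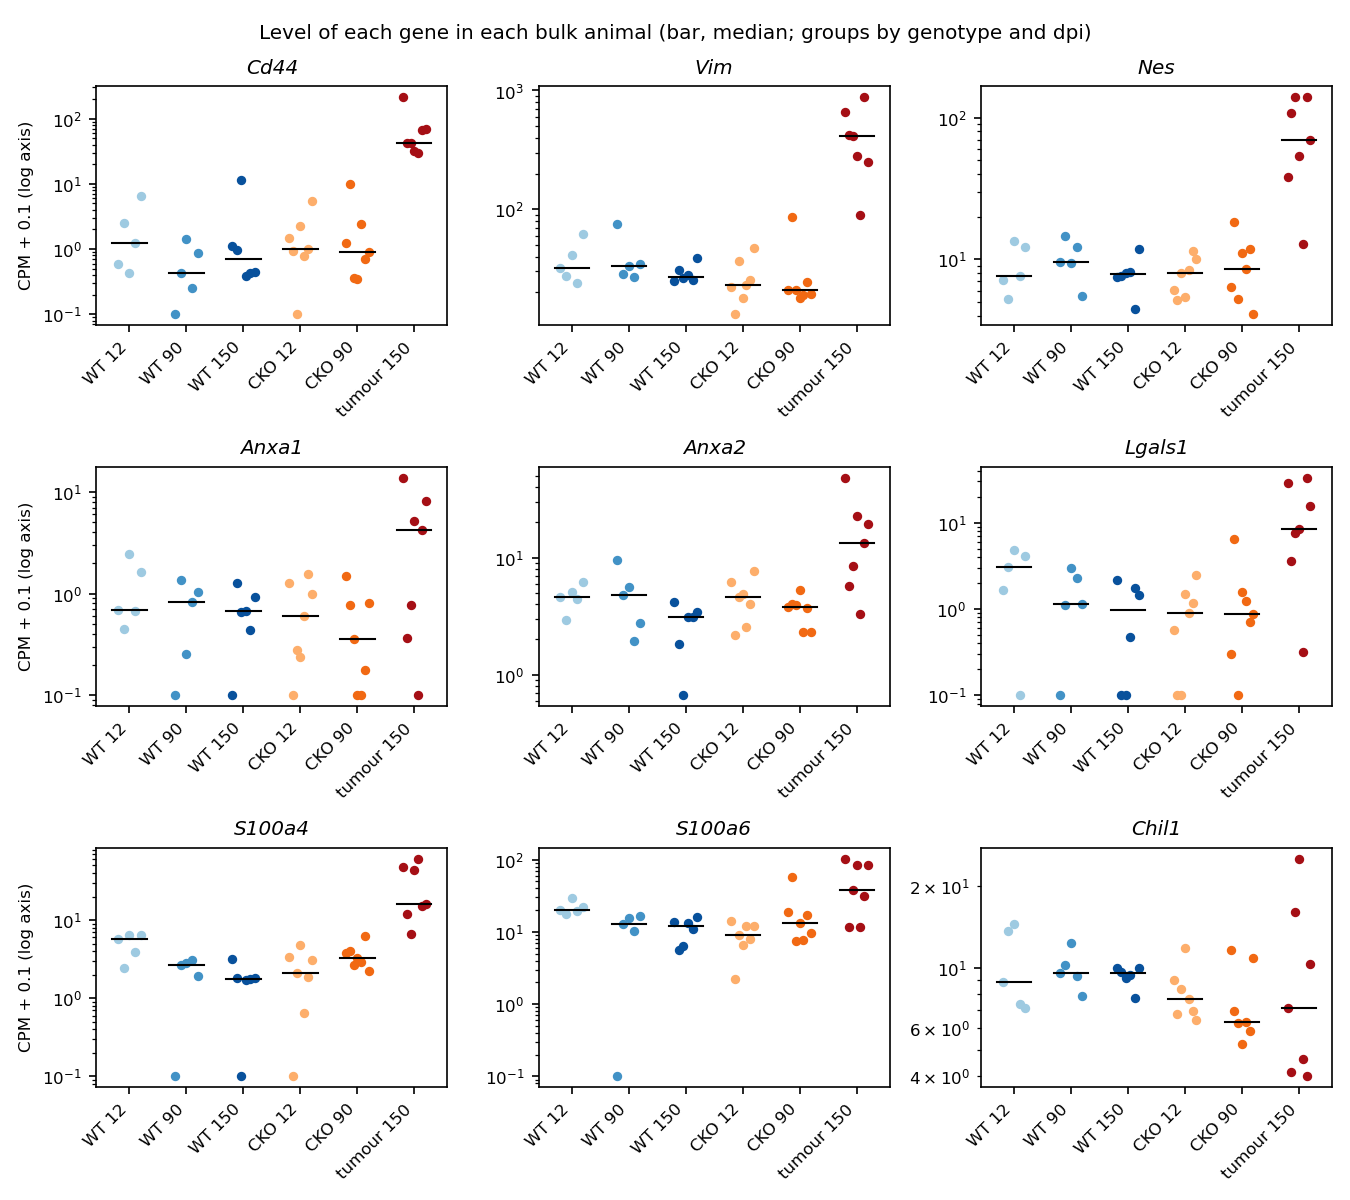
Level of each of the 9 genes in each of the 37 bulk animals, by genotype and dpi. Points are animals, bars are group medians, and the y axis is CPM on a log scale, with the constant named on the axis added so that 0 can be drawn. The tumour points lie above all WT points at 150 dpi for Cd44, Vim, Nes and S100a4, and the Chil1 groups overlap.

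In tumours at 150 dpi, 8 of the 9 genes were higher than in WT OPCs of the same age after tamoxifen, and Chil1 was not. The median log2 change over the 9 genes was 3.29, against 0.06 over all 16349 genes tested. Of all genes tested, 24.3% were called higher in this comparison (edgeR quasi-likelihood F test, Benjamini-Hochberg adjusted p under 0.05). In 4 genes (Cd44, Vim, Nes and S100a4) every tumour lay above every WT animal, which held for 6.72% of all genes. In bulk samples, more cells of a type and more RNA per cell cannot be told apart.

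Cd44, the hyaluronan receptor, had the largest change of the 9. Its level in tumours ran from 29.5 CPM (Tumor_21256) over a median of 42.1 to 215 CPM (Tumor_16713). In WT mice at 150 dpi it ran from 0.284 over 0.606 to 11.3 CPM, the highest being WT_21592. All 7 tumours lay above all 6 WT animals. The log2 change was 5.47 ± 0.96 (± SE, edgeR adjusted p = 1.4e-05). It was 7.09 without WT_21592 and 4.88 without Tumor_16713. The WT group totalled 36 Cd44 counts over its 6 animals.

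Both intermediate filament genes rose. Vim ran from 88.6 over 412 to 884 CPM in tumours and from 24.7 over 27.1 to 38.5 CPM in WT mice at 150 dpi. The groups did not overlap, and the log2 change was 3.79 ± 0.42 (adjusted p = 2.5e-09). Nes ran from 12.7 over 69.2 to 140 CPM in tumours and from 4.34 over 7.74 to 11.8 CPM in WT mice. The groups did not overlap here either, although the lowest tumour, Tumor_21256, lay close to the highest WT animal, and the log2 change was 3.29 ± 0.42 (adjusted p = 3.6e-08).

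The annexins rose with overlap between the groups. Anxa1 was scarce outside tumours, at 0 to 1.16 CPM in WT mice at 150 dpi, and ran from 0 over 4.10 to 13.6 CPM in tumours. The tumours split, with 4 above every WT animal and 3 (Tumor_16839, Tumor_16840 and Tumor_21256) within the WT range. The log2 change was 2.89 ± 0.94 (edgeR adjusted p = 0.0114), and 2.36 without Tumor_16713. The tumour at 0, Tumor_21256, held 4.91 M counts, where 0 counts allow up to 0.645 CPM. Anxa2 ran from 3.23 over 13.3 to 47.9 CPM in tumours and from 0.567 over 3.02 to 4.08 CPM in WT mice. All tumours but Tumor_21256 lay above all WT animals, and the log2 change was 2.56 ± 0.44 (adjusted p = 8.1e-06).

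Lgals1, the galectin-1 gene, ran from 0.215 over 8.36 to 32.8 CPM in tumours and from 0 over 0.870 to 2.04 CPM in WT mice at 150 dpi. Tumor_21256, with 1 count, was again the exception and lay within the WT range, and the other 6 lay above it. The log2 change was 3.79 ± 0.93 (adjusted p = 9.7e-04).

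The S100 pair rose by different amounts. S100a4 ran from 6.52 over 16.1 to 60.7 CPM in tumours and from 0 over 1.69 to 3.06 CPM in WT mice, with no overlap, and the log2 change was 4.05 ± 0.55 (adjusted p = 1.6e-07). S100a6, its neighbour in the genome, was the more abundant of the pair in WT mice, at 5.51 to 16.1 CPM, and ran from 11.4 over 38.2 to 102 CPM in tumours. For S100a6 2 tumours, Tumor_16839 and Tumor_21256, lay within the WT range, and the log2 change was 2.23 ± 0.48 (adjusted p = 2.4e-04). The difference in change between the genes of the pair was not tested.

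Chil1 stood at 7.68 to 9.94 CPM in WT mice at 150 dpi and ran from 3.89 over 7.03 to 25.2 CPM in tumours. The tumours lay on both sides of the WT range, 3 above and 4 below it. The log2 change was 0.15 ± 0.32 (adjusted p = 0.741). It was -0.21 without Tumor_16844, the tumour with the highest Chil1.

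Set against CKO cells at 90 dpi, the last time before the tumours, the same 8 genes were higher in tumours. Of all genes 26.4% were called higher, and 6.77% had every tumour above every CKO animal, as did 3 of the 9 genes (Cd44, Vim and S100a4). This comparison shares the tumours with the one above and is not independent of it. The log2 changes were 4.84 ± 0.79 for Cd44, 3.74 ± 0.39 for Vim, 3.09 ± 0.38 for Nes, 3.15 ± 0.84 for Anxa1 and 2.29 ± 0.39 for Anxa2. They were 3.04 ± 0.80 for Lgals1, 3.00 ± 0.47 for S100a4 and 1.49 ± 0.44 for S100a6, with adjusted p from 5.6e-10 (Vim) to 0.00493 (S100a6). Chil1 was at 0.41 ± 0.30 (adjusted p = 0.278). CKO_20647 moved several of these values: without it the log2 changes were 6.11 for Cd44, 4.37 for Vim, 4.35 for Lgals1 and 2.09 for S100a6. Without CKO_20642, the CKO animal highest in Anxa1 at 90 dpi, Anxa1 was at 3.82. Leaving out Tumor_16713 lowered values instead, to 4.33 for Cd44, 2.64 for Anxa1, 1.89 for Anxa2 and 1.21 for S100a6.

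**Figure D2:**
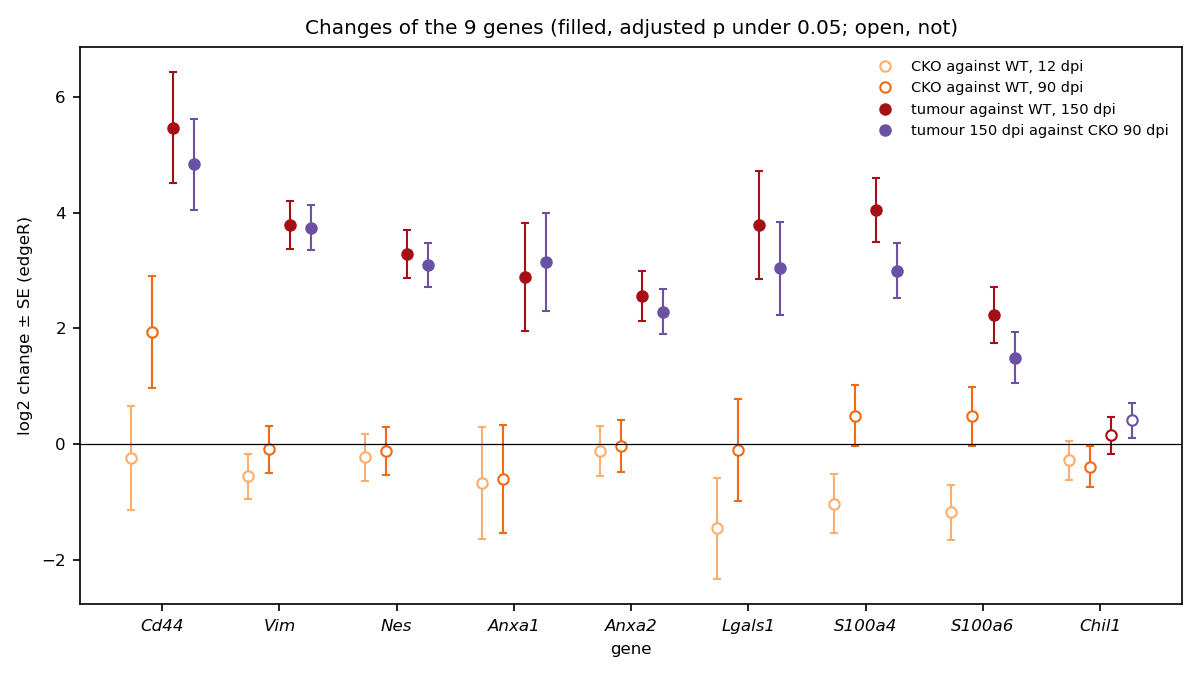
Log2 change with its standard error (edgeR) of each gene in 4 comparisons. Filled points passed an adjusted p of 0.05 and open points did not. The 8 filled genes lie between 1.49 and 5.47 in the comparisons with tumours, and all points for CKO against WT at 12 and 90 dpi are open.

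For the same 8 genes, the change of tumours against WT at 150 dpi was above that of CKO against WT at 90 dpi. This was a test of the difference between the 2 changes, and genotype and tumour state cannot be told apart in it. Of all genes 14.2% were called higher in this test. The differences in log2 were 3.89 for Vim (adjusted p = 1.4e-06), 3.41 for Nes (1.3e-05), 3.56 for S100a4 (2.4e-04), 2.59 for Anxa2 (0.00116) and 3.89 for Lgals1 (0.0157). They were 3.49 for Anxa1 (0.0398), 3.53 for Cd44 (0.0452) and 1.74 for S100a6 (0.0482), and 0.54 for Chil1 (0.427). The calls of Cd44, Anxa1 and S100a6 rested on narrow margins and were lost in 18, 10 and 21 of the 37 fits that left out 1 animal. Without WT_21592 the Cd44 difference was 5.09, and without CKO_20647 those of Cd44, Vim and Lgals1 were 4.69, 4.48 and 5.20. Without CKO_20642 the Anxa1 difference was 4.15. Leaving out Tumor_16713 lowered the differences to 3.04 for Cd44, 2.99 for Anxa1 and 1.48 for S100a6.

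**Figure D3:**
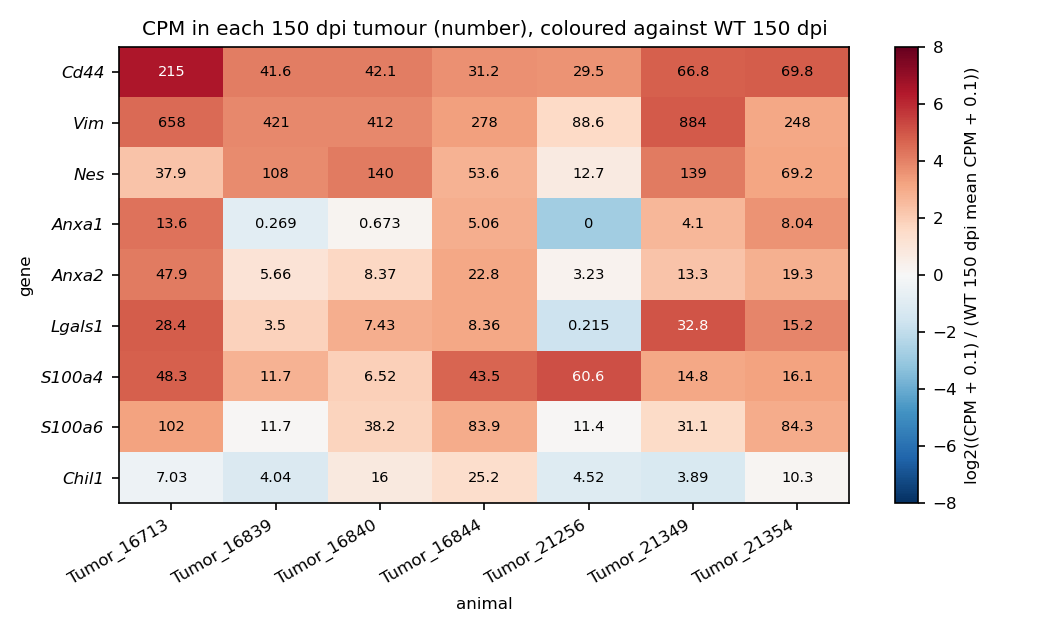
CPM of each gene (rows) in each of the 7 tumours (columns), coloured by the log2 ratio to the WT mean at 150 dpi. Tumor_16713 is highest in Cd44, Anxa1, Anxa2 and S100a6, while Tumor_21256 is lowest in 7 genes and highest in S100a4.

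The 7 tumours did not rank alike over the 9 genes. Tumor_16713 was highest in 4 of them (Cd44, Anxa1, Anxa2 and S100a6) and among the top 2 in 7, but next to last in Nes, at 37.9 CPM. Tumor_21349 was highest in Vim (884 CPM) and Lgals1 (32.8 CPM), second in Nes (139 CPM) and lowest in Chil1 (3.89 CPM). Tumor_16840 led in Nes (140 CPM) and was lowest in S100a4 (6.52 CPM). Tumor_21256 was lowest in 7 genes and highest in S100a4 (60.7 CPM). Its pair of libraries had S100a4 at 36.4 and 87.0 CPM per library total, and the lower of these lay below both libraries of Tumor_16713 (56.3 and 56.4) and of Tumor_16844 (41.1 and 57.7). It lay above all WT animals at 150 dpi in 4 genes, against 6 to 9 in the other tumours. Tumor_16844 and Tumor_21354 lay above all of them in all 9.

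Levels per kilobase were taken over the merged exons of all annotated transcripts of a gene. Vim was the highest of the 9 in tumours by this measure, with a mean of 90.1 CPM per kb. S100a4 (49.3) and S100a6 (37.9) followed, then Lgals1 (15.2), Nes (12.5), Cd44 (10.5), Anxa2 (4.61), Chil1 (3.61) and Anxa1 (1.56). In WT mice at 150 dpi S100a6 (7.94) and Vim (6.08) led, Chil1 (3.30) followed, and Cd44 (0.349) and Anxa1 (0.197) came last. These means have wide spreads, and neighbours in the order overlap between animals. Merged exons can be longer than the transcripts expressed, so the order depends partly on the annotation.

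Markers of other cells moved with the tumour comparison, in which 3974 of all 16349 genes tested were called higher and 3582 lower. Markers of OPCs, the labelled cell type, were present in every group. Their summed level had a median of 1937 CPM (1268 to 2376) in WT mice at 150 dpi and 4676 CPM (2403 to 9222) in tumours, and 8 of the 10 were called higher. Neuron markers stood at a median of 9920 CPM in WT mice and 534 CPM in tumours, 9 of 10 called lower. Microglia markers were at 126 to 196 CPM (median 155) in WT mice and 296 to 1113 CPM (median 467) in tumours, with 9 of 10 called higher. Macrophage markers were at 15.9 to 42.7 CPM (median 27.1) and 23.4 to 582 CPM (median 91.8), with 2 of the 7 tested called higher. Fibroblast markers were at 11.7 to 43.4 CPM (median 25.6) and 16.8 to 500 CPM (median 52.4), with 6 of 8 called higher. Astrocyte markers had medians of 3463 and 2602 CPM, 4 called higher and 4 lower of 10. Pericyte markers had medians of 541 and 182 CPM, 7 of 8 lower, and endothelial markers 278 and 185 CPM, 3 of 10 lower. T cell markers had medians of 2.90 and 7.65 CPM. Neutrophil markers had medians of 9.58 and 9.37 CPM, with 1 of 7 tested and not called. Cxcr2 alone had means of 10.3 CPM in WT mice and 8.36 CPM in tumours. Ngp, Camp, Mmp8 and Elane were at 0 in all WT mice at 150 dpi, and Ltf in all tumours.

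The fibroblast and macrophage sums were uneven among tumours. Tumor_16713 and Tumor_21354 had 500 and 383 CPM of fibroblast markers and 532 and 582 CPM of macrophage markers. They were the 2 highest tumours in Cd44, Anxa1 and S100a6, and both were among the 3 highest in Anxa2 and Lgals1. In the other genes they ranked 2 and 6 (Vim), 6 and 4 (Nes), 2 and 4 (S100a4) and 4 and 3 (Chil1) of the 7 tumours. Tumor_16839, Tumor_21256 and Tumor_21349 had 16.8, 20.6 and 21.0 CPM of fibroblast markers, within the WT range, and 79.0, 23.4 and 330 CPM of macrophage markers, the first and last of these above the WT range. Their Vim levels were 421, 88.6 and 884 CPM, all above the WT animals. Leaving out Tumor_16713 and Tumor_21354 together, a choice made after seeing the data, left 7 of the 9 genes called against WT. Vim was then at 3.82, Nes at 3.48, Cd44 at 4.75, S100a4 at 3.95, Lgals1 at 3.43, Anxa2 at 2.01 and S100a6 at 1.71. Anxa1 was at 1.86 and no longer called (edgeR adjusted p = 0.106). Against CKO at 90 dpi, S100a6 was at 0.96 and lost its call (adjusted p = 0.0756). The 2 tumours left out were also the highest in macrophage markers, so these fits do not separate the cell types. Neuron markers had medians of 9920 CPM in WT mice at 150 dpi and 534 CPM in tumours, and oligodendrocyte markers 2110 and 1026 CPM. The part of neurons, oligodendrocytes, fibroblasts, microglia and macrophages in the changes was not tested.

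**Figure D4:**
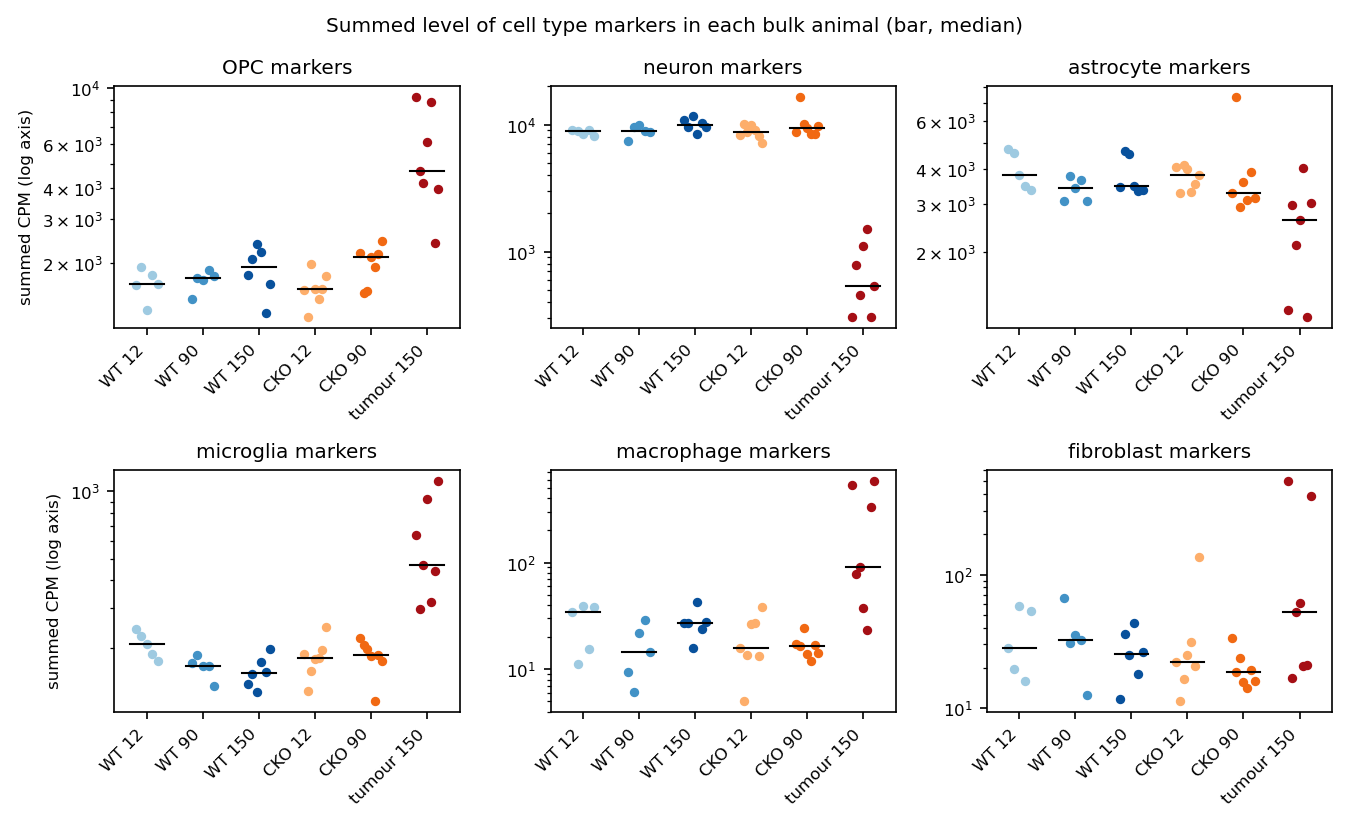
Summed CPM of the markers of 6 cell types in each of the 37 bulk animals, on a log axis, with bars at group medians. Fibroblast markers reach 500 and 383 CPM in 2 tumours, while 3 tumours lie within the WT range at 150 dpi.

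In the 6 comparisons without tumours, none of the 9 genes was called by edgeR or by DESeq2. CKO against WT at 12 dpi called 0.0183% of all genes and at 90 dpi 0.0489%. CKO at 90 against 12 dpi called 0%, and the difference between the genotype effects at 90 and 12 dpi called 0%. In WT mice, 90 against 12 dpi called 0.00612% and 150 against 90 dpi 0.0183%. At an unadjusted p under 0.05, edgeR counted 1 of the 9 genes in CKO against WT at 12 dpi, 0 at 90 dpi, 1 in CKO over time, 2 in the difference between genotype effects, and 0 in both WT comparisons. Over all 16349 genes the same threshold counted 793, 850, 696 and 589, and 795 and 1350 in the WT comparisons. A p that misses the threshold does not show that the levels were alike.

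At 12 dpi the median log2 change of the 9 genes in CKO against WT was -0.56, against 0.03 over all genes. None was called, and several changes were smaller than their SE, among them Anxa2 (-0.12 ± 0.43), Nes (-0.23 ± 0.41) and Cd44 (-0.24 ± 0.90). S100a6 was at 17.7, 19.4, 19.7, 21.9 and 29.1 CPM in the 5 WT mice, and ran from 2.09 over 9.02 to 13.8 CPM in the 7 CKO mice. The groups did not overlap, as was the case for 1.33% of all genes in either direction. The log2 change was -1.18 ± 0.48 (unadjusted p = 0.02, edgeR adjusted p = 0.997). S100a4 was at -1.03 ± 0.51 and Lgals1 at -1.46 ± 0.87, both with groups that overlap. Depth differed between these groups, with a median of 3.47 M counts per WT and 16.0 M per CKO animal, and its part was not tested.

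S100a6 also stood higher in WT mice at 12 dpi than at 90 dpi, where it was at 0, 10.1, 12.7, 15.6 and 16.3 CPM. The animal at 0 is WT_21167, where 0 counts allow up to 28.4 CPM, so its place is unknown. As measured the groups did not overlap, as for 2.96% of all genes, and the log2 change was -0.68 ± 0.54 (edgeR unadjusted p = 0.216). In CKO mice S100a6 ran from 7.43 over 13.0 to 57.9 CPM at 90 dpi. Its log2 change from 12 dpi was 0.98 ± 0.45 (edgeR unadjusted p = 0.0359, adjusted p = 1), and 0.41 without CKO_20647. Its genotype effect at 90 dpi was above that at 12 dpi by 1.66 ± 0.71 (unadjusted p = 0.0253, adjusted p = 1), and 1.12 without that animal.

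CKO_20647 was the highest of the 7 CKO animals at 90 dpi in 5 genes: Cd44 (9.97 CPM), Vim (86.8), Nes (18.1), Lgals1 (6.36) and S100a6 (57.9). The other 6 animals had 0.246 to 2.35 CPM of Cd44 and 17.9 to 24.6 CPM of Vim. Its pair of libraries differed from each other more than those of the other 10 animals with 2 libraries, with a Pearson r of log2 values over genes of 0.886 against 0.972 to 0.995. In the library numbered 1 here, Vim was at 143 CPM per library total, Cd44 at 16.9, Nes at 26.5 and Lgals1 at 10.6. In the library numbered 2, they were at 3.49, 0, 4.22 and 0.106 CPM. Only S100a6 was high in both, at 41.1 and 58.0 CPM. The libraries held 9.67 and 9.47 M counts but 17957 and 13265 genes with a count. Markers differed with them: microglia at 322 and 27.2 CPM, neuron at 8635 and 19658 CPM, and astrocyte at 3366 and 9267 CPM. Whether the library with more Vim and Cd44 differs in the cells captured or in RNA recovery was not tested.

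The other mesenchymal and family genes, in lists chosen with results of these data known, gave the setting in the tumour comparison. Of all 16349 genes tested in it, 3974 were called higher (24.3%) and 3582 lower. Of 17 other effector genes of the mesenchymal state, 15 rose in tumours against WT at 150 dpi and 0 fell (median log2 2.73). Lox, which cross-links collagen, rose by 5.32 ± 1.02, from 0 to 1.00 CPM in WT mice to 4.71 to 48.7 CPM in tumours. Its group means outside tumours were 0.159 to 0.501 CPM, so it may have passed the filter on low counts through the tumours. Its call would then support nothing, and other scarce genes in these lists may share this limit. Met, the receptor for hepatocyte growth factor, had a log2 change of 6.79 ± 1.47 (adjusted p = 2.4e-04) that rested on few animals. It was at 2492 CPM in Tumor_21349 and 208 CPM in Tumor_16840, with a tumour median of 13.4 CPM, against 1.13 to 4.68 CPM in WT mice. CKO_20647 had 350 CPM of Met, against 5.90 to 12.5 CPM in the other 6 animals of its group, and against CKO at 90 dpi Met was not called (log2 2.41, adjusted p = 0.112).

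Transcription factors tied to the mesenchymal programme went both ways, 7 up and 3 down of 13 tested. All 16349 genes gave 3974 up and 3582 down. Cebpd, a C/EBP factor, rose by 2.69 ± 0.47 and Relb, of the NF-kB family, by 2.87 ± 0.44. Fosl2, an AP-1 subunit, ran from 66.5 to 328 CPM in WT mice and from 29.1 to 64.5 CPM in tumours, and its log2 change was -2.33 ± 0.43 (adjusted p = 2.6e-05). Bhlhe40 was at -1.75 ± 0.20 (adjusted p = 7.3e-09). Proneural genes also rose, 11 of 12, among them the Notch ligand gene Dll3 (4.11 ± 0.55). Dcx, a microtubule-binding protein of young neurons, was the 1 that fell (-2.53 ± 0.50).

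Relatives of the 9 genes mostly rose or did not pass the test. In the same comparison 24.3% of all 16349 genes tested were called higher, and 3582 genes lower. Of 8 other S100 genes tested 6 rose, among them S100a11 (2.08 ± 0.47) and the glial S100b, at 52.5 to 115 CPM in WT mice and 113 to 341 CPM in tumours (adjusted p = 9.2e-08). Of 7 other annexins 4 rose, with Anxa6 at 1.91 ± 0.30 and Anxa5 at 1.84 ± 0.30. Of 6 other galectins 3 rose. Lgals3 was at 0 in all 6 WT mice at 150 dpi and at 1.48 to 16.7 CPM in tumours, at least 10.5-fold higher against 3 counts per WT animal. Its group means outside tumours were 0 to 0.345 CPM, so it too may have passed the filter through the tumours, and its call would then support nothing. Lgals9 rose by 3.58 ± 0.51. Of 12 genes of hyaluronan and the ezrin, radixin and moesin linkers 6 rose, among them the hyaluronan receptor gene Hmmr (3.52 ± 0.37) and the linker gene Msn (3.05 ± 0.36). Of 9 other intermediate filament genes 3 rose and 4 fell: the astrocytic Gfap rose by 2.52 ± 0.29 and the lamin gene Lmnb1 by 1.83 ± 0.26, and the neuronal Nefl and Ina were at -2.46 ± 0.35 and -2.18 ± 0.25. Of 3 chitinase-like genes 0 rose and Ovgp1 fell (-0.83 ± 0.29, edgeR adjusted p = 0.0167), a call lost with another scaling (RLE size factors). Without Tumor_16713 and Tumor_21354 the counts up and down were 13 and 0 for the effectors, 6 and 3 for the regulators, 11 and 1 for the proneural genes, 5 and 0 for S100 genes, and 4 and 0 of 6 tested annexins. They were 3 and 0 for galectins, 6 and 0 for hyaluronan and linker genes and 2 and 4 for intermediate filaments, whose median went from 0.13 to -0.65 (-0.51 without Tumor_16713 alone). In CKO against WT at 12 and 90 dpi 0 genes of these 9 lists were called by edgeR, and 0 to 2 genes of each list had an unadjusted p under 0.05.

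Within groups, after subtracting each group's mean log2 CPM, the genes whose levels varied most like a member were found over 36 animals (WT_21167 left out), as a description. Vim was most like Msn, the moesin gene (Pearson r 0.83), and Nes most like Rhoa (0.81). S100a6 was most like the astrocytic Clu (0.81), Anxa2 like the lysosomal Gaa (0.80) and Grn (0.78), and Anxa1 like Lcp1 (0.71), an actin-bundling gene of leukocytes. Chil1 was most like Pi4ka (0.73), S100a4 like Rragc (0.65) and Cd44 like Dimt1 (0.63). Among the 9 genes the closest were Anxa2 with S100a6 (0.72), Vim with Nes (0.67) and Anxa1 with S100a6 (0.63), while S100a4 and Nes were at -0.14. The points share libraries, depth and cell make-up. Genes named from outside the 9 were picked as the highest of 8174 genes searched, and picking the highest raises r.

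In the small CKO libraries, detection means a count above 0. Vim was the most widely detected of the 9 in 10-cell libraries, in 46 of 56 at 12 dpi (82.1%, Wilson 95% interval 70.2 to 90.0) and 54 of 56 at 90 dpi (96.4%, 87.9 to 99.0). Cd44 was in 1 of 56 (1.79%, 0.316 to 9.45) and 11 of 56 (19.6%, 11.3 to 31.8). Nes was in 23 and 42, Anxa2 in 27 and 41, Lgals1 in 41 and 50, S100a4 in 11 and 28, S100a6 in 38 and 51, Chil1 in 27 and 40, and Anxa1 in 6 and 2 of 56. So 8 of the 9 were detected in more 10-cell libraries at 90 than at 12 dpi and Anxa1 in fewer. That was also so for 91.3% of all 14500 genes tested, with the median number of genes per library at 7550 and 10110 and median depth at 4.48 and 4.04 M counts. Intervals cover counting error only, and libraries of a set may share an animal.

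**Figure D5:**
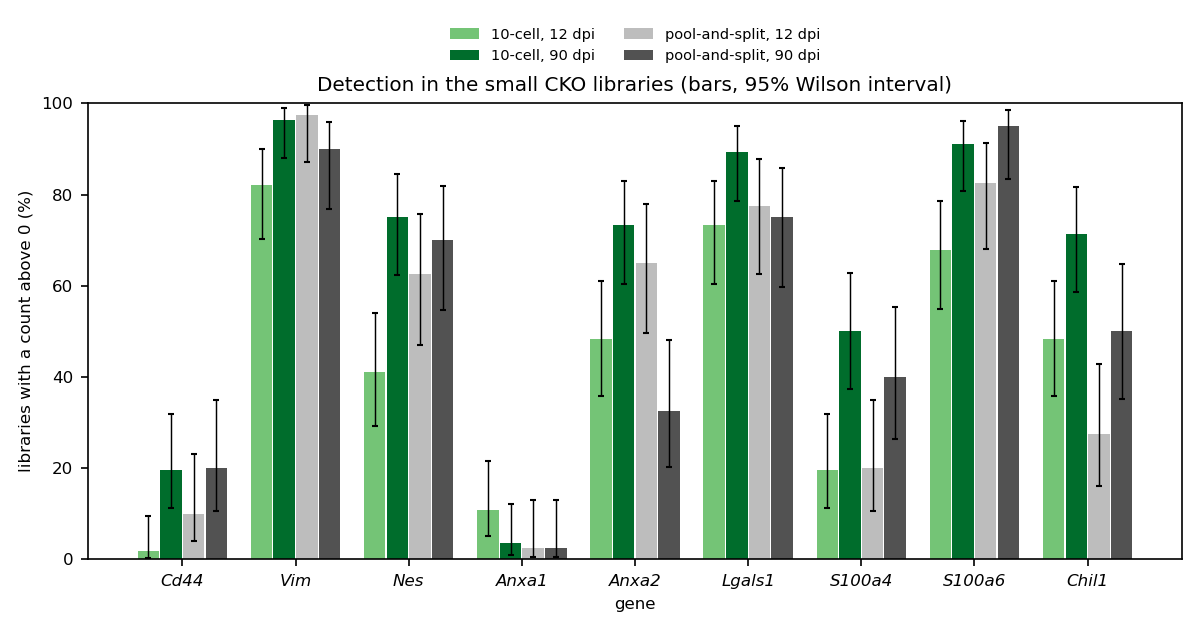
Share of small CKO libraries with a count above 0 for each gene, in 10-cell libraries (56 per time) and pool-and-split libraries (40 per time) at 12 and 90 dpi. Error bars are Wilson 95% intervals. Between 12 and 90 dpi Vim goes from 82.1% to 96.4% and Cd44 from 1.79% to 19.6% in 10-cell libraries.

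Pool-and-split libraries, with a median of 8690.5 and 8739 genes, showed other shifts. Anxa2 was in 26 of 40 at 12 dpi (65.0%) and 13 of 40 at 90 dpi (32.5%), the opposite direction to the 10-cell libraries. Vim was in 39 and 36, Nes in 25 and 28, Lgals1 in 31 and 30, S100a6 in 33 and 38, S100a4 in 8 and 16, Chil1 in 11 and 20, Cd44 in 4 and 8 and Anxa1 in 1 and 1 of 40. Of the 8 genes tested there, 5 were detected in more libraries at 90 dpi, against 50.4% of all 13408 genes.

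Libraries were summed into 4 sets per time and kind, by sex and the label's last number. None of the 8 genes tested was called at 90 against 12 dpi in 10-cell sets by edgeR, where 0% of all genes were called, 1034 at an unadjusted p under 0.05. DESeq2 called 273 genes and 0 of the 8. S100a6 was the 1 of the 8 with an unadjusted p under 0.05 (log2 0.85, edgeR p = 0.0432, adjusted p = 0.683). Its set means were 50.5, 55.9, 58.2 and 88.9 CPM per library at 12 dpi and 77.0, 162, 166 and 176 CPM at 90 dpi, which overlap. In pool-and-split sets edgeR called 0% of all genes, 1050 at an unadjusted p under 0.05, and 0 of the 8. Cd44 was at -5.02, against 5.08 in the 10-cell sets (edgeR p = 0.165), where 1 of 56 libraries held it at 12 dpi. Its value in the pool-and-split sets was not called by edgeR (adjusted p = 0.604), and DESeq2, which called 523 genes, called it at an adjusted p of 0.0047. The 4 set means were 0.717, 5.00, 7.96 and 53.1 CPM at 12 dpi, the last from 1 library of 531 CPM, and without that set Cd44 was at -2.47. At 90 dpi the set means were 0.169, 0.333, 0.756 and 0.803 CPM, so the sets overlap.

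Spread between 10-cell libraries was compared with that between pool-and-split libraries, which share a pool, by a limma test of absolute deviations from the set median of log2(CPM + 1). A gene had to be detected in 50% of libraries. Single libraries were the units here, and libraries of a set may share an animal, so these p-values speak of these sets only. At 12 dpi 0.0252% of 7926 genes were called and at 90 dpi 0.639% of 9704, and limma called 0 of the 9 genes at either time. At 12 dpi Vim deviated by a mean of 2.72 in 10-cell and 1.99 in pool-and-split libraries (difference 0.73 ± 0.341 log2, limma p = 0.0342, adjusted p = 0.487). At 90 dpi the order was the other way, 1.78 and 2.40 (p = 0.0717, adjusted p = 0.425). Anxa2 at 90 dpi deviated by 2.15 and 1.01 (difference 1.13 ± 0.409, limma p = 0.00671, adjusted p = 0.165), where it was also detected in fewer pool-and-split libraries. Cd44, Anxa1 and S100a4 were detected too seldom to be tested at either time, and Chil1 at 12 dpi.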

How the data were processed

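RNA was measured in 48 bulk libraries (T7 linear amplification, total RNA, 10 µm sections) and 192 small libraries (PCR amplification, Nextera XT, polyA RNA, 8 µm sections), per the labels. The deposited values are expected counts per gene, which the authors did not scale. RSEM, Bowtie2 and GRCm38 are named in the submitters' processing notes, with no version given in the sources used here. Expected counts (13.6% not whole) were rounded, 92 spike-ins were left out, and libraries of 1 animal (11 animals) or set were summed. Where nothing says sets came from separate animals, their p-values measure only the spread between these sets.

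Low genes were dropped with filterByExpr of edgeR 4.0.16 under R 4.3.3, at its minimum count of 10 and total of 15. A single quasi-likelihood model with TMM scaling and a term for sex held all 37 animals, and each comparison is an F test in it. A gene is called when its p, adjusted by Benjamini and Hochberg across the whole table, is under 0.05. Log2 CPM has a prior count of 2. SE is the log2 change divided by the root of F. Spread was tested with limma 3.58.1. Alternatives were DESeq2 1.42.0, RLE scaling, other filters, no sex covariate, the deepest library per animal, the compared groups alone, a robust spread, a replicate block for sets, other pseudocounts and detection limits, and leaving out each animal or set. Scripts were tested on simulated data.

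All 9 genes are named. Of each list the 2 largest rises and falls among called genes are named, and 3 genes per member by likeness were computed, of which at most 2 are given. Some items that these rules name are not reported here. Met per animal and the values of CKO_20647 per library were chosen after their values were seen. The members and lists were chosen with earlier results of these data known. Marker lists of 12 cell types were used. The ependymal list had 1 gene called higher and 1 lower of 5 tested in tumours against WT. The oligodendrocyte list had 1 higher and 6 lower of 10, and all 16349 genes gave 3974 higher and 3582 lower.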

Additional observations from a re-analysis of the deposited data

Results flagged for a closer look

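In 8 of 54 combinations of gene and group, 1 animal stood apart from the rest by Dixon's ratio on log2 CPM. Chance gives about 1 in 20 for normally spread values, which low counts are not. The share over all genes was not computed, so the count does not show an excess in these genes. The high animals were WT_21592 at 150 dpi for Cd44 (11.33 CPM, from 20 counts), WT_21167 at 90 dpi for Vim (75.83 CPM, from 8 counts) and CKO_20647 at 90 dpi for Vim (86.83 CPM). The low animals were WT_21167 for S100a4 and S100a6 (0 CPM each, where 0 counts allow up to 28.4 CPM), WT_21592 for S100a4 (0 CPM, up to 1.70 CPM), CKO_21725 at 12 dpi for S100a6 (2.09 CPM) and WT_22062 at 150 dpi for Chil1 (7.684 CPM). None of the 7 tumours stood apart in this way in any of the 9 genes.

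The change against WT differed between tumours at 150 dpi and CKO cells at 90 dpi, by a test of the difference. In log2 it differed by 3.53 for Cd44, 3.89 for Vim, 3.41 for Nes and 3.49 for Anxa1. The values were 2.59 for Anxa2, 3.89 for Lgals1, 3.56 for S100a4 and 1.74 for S100a6. Of all genes tested, 14.2% were called higher in this test. The calls were not equally firm: those of Cd44, Anxa1 and S100a6 were lost in 18, 10 and 21 of the 37 fits that left out 1 animal.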

How the results depend on the processing

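In the comparisons of tumours with WT and with CKO at 90 dpi, the 8 calls held in all 37 fits without 1 animal (8 to 8) and in each alternative that tested the gene, except that leaving out Tumor_16713 and Tumor_21354 together, added after seeing the data, ended the call of Anxa1 against WT and of S100a6 against CKO. A filter of a mean of at least 10 CPM left 4 of the 9 genes to test (Cd44, Vim, Nes and S100a6). All 4 were called in both comparisons and in the difference between the changes against WT at 150 dpi (tumours) and 90 dpi (CKO). Cd44 and Nes passed this filter through the tumours, so their calls under it support nothing. Anxa1 was not tested against WT with the compared groups alone. In that difference, leaving out 1 animal left 5 to 8 genes called, leaving out those 2 tumours left 5, and a robust spread or the compared groups alone left 6. Leaving out CKO_20647 and WT_21592 moved values by over 1.5 times, as given above. RLE scaling raised the median of all genes by 0.154, 0.168 and 0.159 in the comparisons with tumours. It moved the calls against WT from 3974 higher and 3582 lower to 4839 and 2959, and the share higher in the difference between effects from 47.2% to 57.3%.

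Directions that turned were Chil1 in tumours against WT, -0.07 with the deepest library per animal and -0.21 without Tumor_16844 (0.15 with all animals, -0.21 to 0.34 without 1 animal), Chil1 in tumours against CKO, -0.03 with the deepest library, and the Vim genotype effect at 90 less that at 12 dpi (0.46), -0.13 without CKO_20647 (-0.13 to 0.61 without 1 animal). The cause was not tested.

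Counts of all genes called without tumours were small and moved. CKO against WT at 12 dpi called 3 genes, 13 with DESeq2, 92 with the compared groups alone, 1 at 10 CPM, and 2 to 6 without 1 animal. At 90 dpi it called 8, then 18 with DESeq2, 4 at 10 CPM and 4 to 9 without 1 animal. CKO over time called 0, then 2 with DESeq2, 1 with the groups alone and 0 to 1 without 1 animal. WT 90 against 12 dpi called 1, then 9, 295 with the groups alone, 0 with a robust spread and 0 to 1. WT 150 against 90 dpi called 3, then 20, 5 without sex and 1 to 6. The genotype effect at 90 less that at 12 dpi called 0, then 6, 1 without a filter and 0 to 1.

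In sets DESeq2 called 273 genes in 10-cell and 523 in pool-and-split libraries, Cd44 being the 1 of the 9 genes, and no filter called 1 gene in the latter. The set numbers did not pair the sets (same-number correlations from -0.035 to 0.016). A replicate block of sex and number gave 0 genes called in both kinds, 787 and 771 at an unadjusted p under 0.05. For spread at 12 dpi 2 genes were called, 6 with detection in 90% of libraries, 11 and 0 with pseudocounts of 0.1 and 5, and 0 to 4 without 1 pair of sets. At 90 dpi 62 were called, and 19 to 38 without 1 pair. Low counts limit Anxa1, Lgals1 and Cd44 outside tumours, and 1 count is worth most in WT_21167.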
